A study of Mus musculus with 34 samples.

Results

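The 50 mitosis genes described here encode proteins that drive or carry out cell division. They were taken as a list of gene symbols, and all 50 matched 1 gene ID each among the 54532 IDs of the count tables. Cells enter mitosis when a B-type cyclin activates the cyclin-dependent kinase CDK1, and the Aurora and Polo-like kinases then direct chromosome condensation, spindle assembly and cytokinesis. Spindle-checkpoint proteins hold the anaphase-promoting complex, a ubiquitin ligase, in check until every kinetochore is attached to microtubules. Most of these genes are transcribed late in the cell cycle and are low in resting cells, so in blood they are known as markers of the few cells that still divide or have recently divided.

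Blood messenger RNA was sequenced in mice that were all labelled wild type. ALY688, an agonist of the adiponectin receptor according to the series title, was given with or without lipopolysaccharide (LPS), a bacterial outer-membrane component that sets off systemic inflammation. The control group of 9 mice had phosphate-buffered saline (PBS), 10 mice had ALY688, 4 had LPS and 7 had both agents. A further PBS mouse, number 10, was not analysed here, nor were LPS mice 3, 4 and 5. The sources used here do not give doses, sampling times, the animals' sex or their age. The series text speaks of plasma for the experiment without LPS and of whole blood for the LPS model, which it calls sublethal, while every sample is labelled blood, so LPS and the experiment cannot be told apart where mice with and without LPS are compared. Each title names a numbered mouse, and a replicate is 1 mouse. A lower level in a bulk sample can mean fewer cells of a type or less RNA per cell, and these cannot be told apart.

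Total counts ran from 9554964 to 17338214 per library. The globin genes took 18.5 to 64.4% of them, and 5 general leukocyte markers were present in every group, with summed levels of 1832 to 3580 CPM (counts scaled to a common library size, here with TMM factors, which assume that most genes do not change). The globin share was 45.2 to 64.4% with PBS and 18.5 to 43.7% with LPS, and these ranges did not overlap. In 6 libraries fewer than 16000 genes had a count (PBS mice 5, 6 and 9, ALY688 mouse 7, and ALY688 with LPS mice 6 and 8). Their CPM stood apart for some members, as described below. A library held between 4692 and 36553 counts of the 50 genes together.

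Most mitosis genes were scarce in the blood of mice not given LPS. The mean level was under 5 CPM for 38 of the 50 genes with PBS and for 37 with ALY688, against 7 with LPS and 27 with ALY688 and LPS. Only 39 of the 50 had a count in every PBS library, while all 50 had one in every LPS library. Compared per kilobase of exon, the median gene stood at 0.397 CPM per kb with PBS, 0.428 with ALY688, 2.05 with LPS and 1.15 with ALY688 and LPS. Cdc25c, the phosphatase that switches on CDK1 at mitotic entry, was the lowest in all 4 groups, at 0.0136 CPM per kb with PBS and 0.263 with LPS.

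3 genes stood far above the rest. Ube2c, the ubiquitin-conjugating enzyme of the anaphase-promoting complex, had the highest mean level per length in every group, at 107 CPM per kb with PBS. Cdc25b, a phosphatase that activates cyclin-dependent kinases, followed at 82.5 CPM per kb, and Nusap1, a microtubule-binding protein of the spindle, at 14.0. The 3 together made up 77.9% ± 7.76 (SD, n = 9) of the summed CPM of the 50 genes with PBS and 40.2% ± 25.9 (SD, n = 4) with LPS. The other genes are therefore also summarised as 47 genes, a set chosen after these levels were seen.

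In TMM-scaled CPM, Ube2c and Nusap1 were highest in the libraries with few detected genes among mice without LPS, and Cdc25b tended the same way with overlap. Among mice without LPS, Ube2c was 424 to 1122 CPM in the 4 such libraries and 85.3 to 235 CPM in the other 15. Nusap1 was 86.4 to 294 CPM in the 4 and 17.1 to 66.2 CPM in the 15. Cdc25b was 330 to 1323 CPM in the 4 and 133 to 408 CPM in the 15. With ALY688 and LPS, Ube2c was 930 and 1991 CPM in mice 6 and 8 and 99.7 to 392 CPM in the other 5. Within the mice without LPS, these libraries lay above the rest in CPM for 4 genes, Ube2c, Nusap1, Incenp and Spc24. Their median was more than 2 times that of the rest for 11 of the 50 genes. The share of all genes with either pattern was not computed, so these counts are not a result about mitosis genes. The TMM factors were 0.349 to 0.455 in the 4 libraries and 0.789 to 1.45 in the 15. Low factors raise the CPM, and relative to library totals alone the ranges of all 4 genes overlapped. Mki67, the proliferation antigen that coats mitotic chromosomes, overlapped, with 26.4 to 52.3 CPM in the 4 libraries and 10.2 to 36.8 CPM in the 15. The summed level of 19 erythroid markers was 17193 to 92957 CPM with PBS and 2608 to 33420 CPM with LPS, and all 19 had counts in each group. Its part in the level of the 3 genes was not tested.

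**Figure D1:**
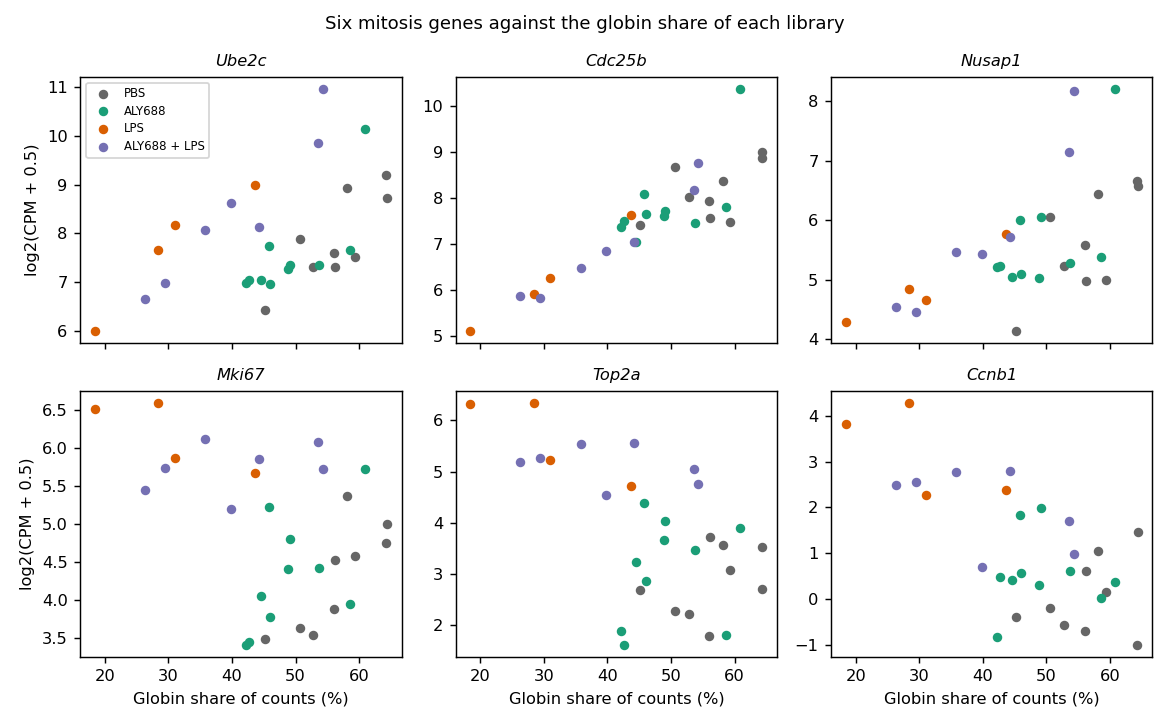
Each point is 1 library, with the globin share of its counts in percent on the horizontal axis and log2(CPM + 0.5) on the vertical axis, coloured by group. Ube2c and Nusap1 have their 2 highest points in ALY688 mouse 7 and in mouse 8 with ALY688 and LPS, at globin shares of 60.8% and 54.3%, while Mki67, Top2a and Ccnb1 are highest in LPS mice 2 and 6, at globin shares of 28.4% and 18.5%.

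The mean log2 CPM over all 50 genes was 1.24 ± 0.35 (SD, n = 9) with PBS, 1.41 ± 0.54 (SD, n = 10) with ALY688, 3.22 ± 0.70 (SD, n = 4) with LPS and 2.65 ± 0.28 (SD, n = 7) with ALY688 and LPS. PBS mice ran from 0.73 to 1.80 around a median of 1.20, and ALY688 mice from 0.62 to 2.23 around 1.54. LPS mice 2, 6, 7 and 8 had 3.89, 3.71, 2.42 and 2.85. The mice with ALY688 and LPS ran from 2.18 to 3.01 around a median of 2.66. All 4 LPS mice lay above every PBS mouse, and 2 of them lay within the range of the mice with ALY688 and LPS. Over the 47 genes the group means were 0.86, 1.05, 3.02 and 2.37 in the same order.

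**Figure D2:**
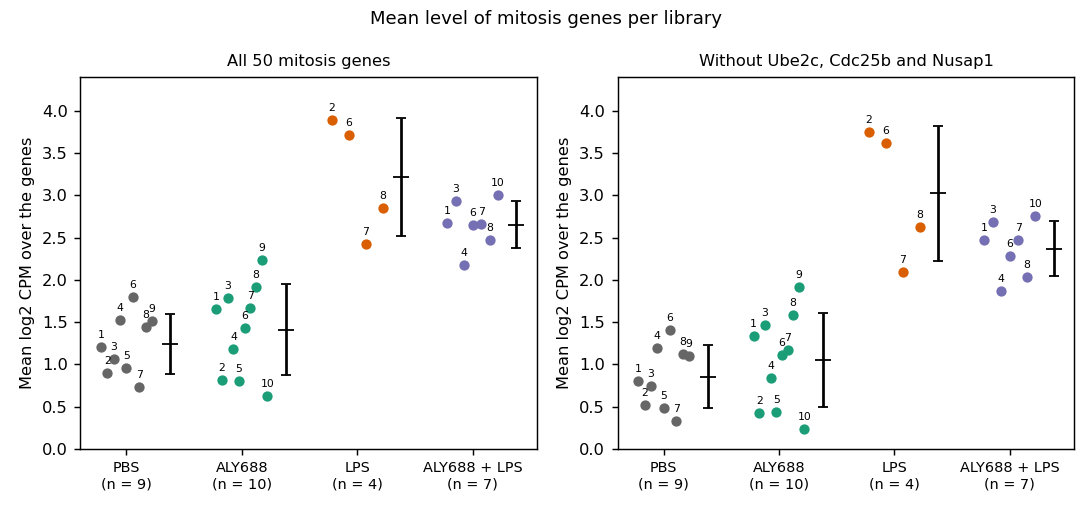
Mean log2 CPM per library over all 50 mitosis genes (left) and over 47 of them (right), with mouse numbers beside the points and the group mean ± SD as bars. LPS mice 2 and 6 lie above all other libraries, at 3.89 and 3.71 over the 50 genes, and LPS mice 7 and 8 lie among the mice with ALY688 and LPS.

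LPS mice 2 and 6 carried much of the LPS group's level. They were the 2 highest of all 30 libraries for 42 of the 50 genes and lay above LPS mice 7 and 8 for 46. LPS mouse 7 was inside the range of the mice with ALY688 and LPS for 41 genes, and LPS mouse 8 also for 41. Top2a, the topoisomerase that untangles sister chromatids, shows the pattern. Its level was 80.5, 80.0, 25.7 and 36.7 CPM in LPS mice 2, 6, 7 and 8, and 22.8 to 46.7 CPM around a median of 36.1 in the mice with ALY688 and LPS. The lower pair of LPS mice thus fell among the mice that also had ALY688, and the upper pair did not.

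**Figure D3:**
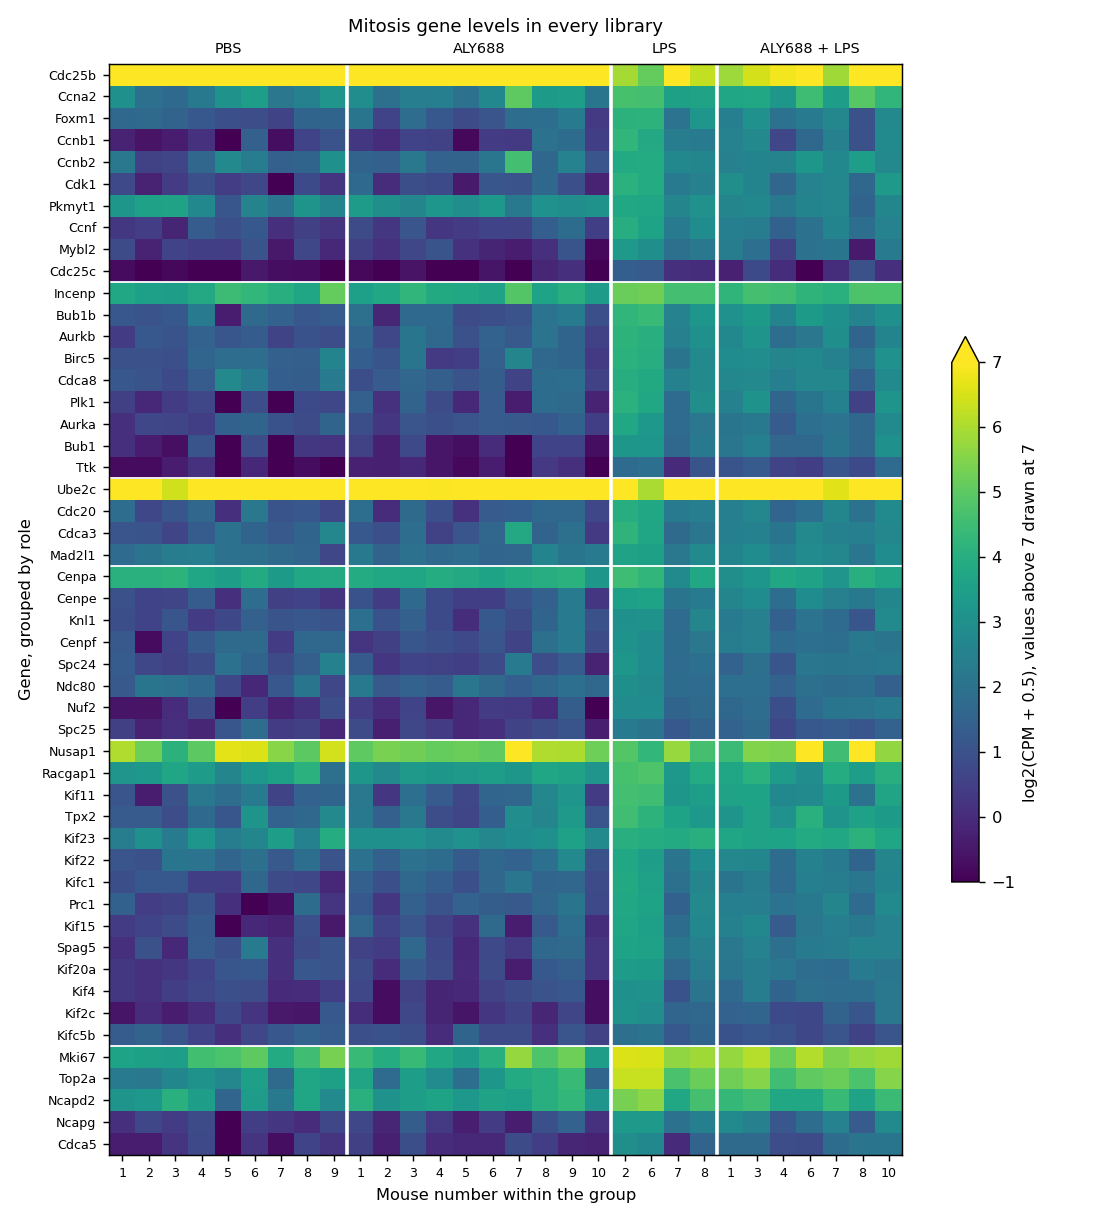
Heat map of log2(CPM + 0.5) for the 50 genes (rows, grouped by role and ordered within a role by their LPS mean) in 30 libraries (columns, by group and mouse number), with values above 7 drawn at 7. The columns of LPS mice 2 and 6 are the brightest for most rows, and Cdc25b, Ube2c and Nusap1 are bright in nearly all columns.

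LPS was compared with PBS to see how the mitosis genes respond to endotoxin, using edgeR's quasi-likelihood test with Benjamini-Hochberg adjustment over 12353 genes and an adjusted p below 0.05 as the threshold. Of 48 mitosis genes that passed the filter on low counts, 42 were higher with LPS, 1 was lower and 5 did not pass the test. Over all genes tested, 38.7% passed the test, 20.9% as higher and 17.9% as lower. The median log2 fold change was 2.23 over the 48 genes and -0.04 over all genes. The groups did not overlap, with every LPS mouse above every PBS mouse, for 26 of the 48 genes, against 14.1% of all genes. Cdc25c and the checkpoint kinase gene Ttk did not pass the filter.

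Among the master regulators, the cyclins and their kinase, 7 of 9 tested genes rose. Ccnb1, cyclin B1, was 0 to 2.25 CPM around a median of 0.369 with PBS and 18.9, 13.8, 4.68 and 4.31 CPM in LPS mice 2, 6, 7 and 8. No PBS mouse reached the lowest LPS mouse, and the log2 fold change was 4.01 (SE 0.58, adjusted p = 6.92e-05). About 23.4% of its 50-base transcript words also occur in other genes, chiefly in the pseudogene Ccnb1-ps, so its reads can be split. Cdk1, the kinase partner, was 0 to 1.42 CPM with PBS and 16.6, 14.5, 4.4 and 5.13 CPM with LPS, with a log2 fold change of 3.51 (SE 0.46, adjusted p = 2.09e-05). Foxm1, the transcription factor that switches on late cell cycle genes, was 1.05 to 2.93 CPM with PBS and 17.1, 17.7, 3.63 and 8.67 CPM with LPS, a change of 2.41 (SE 0.33, adjusted p = 3.22e-05). Mybl2, the B-MYB factor that acts before it, was 0.233 to 1.58 CPM with PBS and 9.57, 7.39, 3.34 and 4.12 CPM with LPS, a change of 2.76 (SE 0.38, adjusted p = 3.28e-05). Each of these 4 genes kept the LPS and PBS mice apart. Ccnf, cyclin F, a ubiquitin ligase subunit, changed by 3.22 and Ccna2, cyclin A2, by 1.55. Ccnb2, cyclin B2, changed by 1.57 and lost its call without LPS mouse 2 (adjusted p = 0.0508). Pkmyt1, the kinase that holds CDK1 inactive, did not pass (log2 fold change 0.42, SE 0.35, adjusted p = 0.352), with 1.72 to 11.8 CPM with PBS and 5.73 to 13.5 CPM with LPS.

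Cdc25b was the only mitosis gene lower with LPS. It was 171 to 515 CPM around a median of 259 with PBS and 59.9, 34.3, 200 and 76.3 CPM in LPS mice 2, 6, 7 and 8. LPS mouse 7 lay inside the PBS range, and the log2 fold change was -1.76 (SE 0.49, adjusted p = 0.0101). Its call was lost with the globin share as a covariate (log2 fold change 0.08, adjusted p = 0.921). Ube2c (-0.10, SE 0.54, adjusted p = 0.899) and Nusap1 (-0.89, SE 0.45, adjusted p = 0.134) did not pass. With library totals in place of TMM, Ube2c was at 1.03 (adjusted p = 0.00513), but the median of all genes moved to 1.04, so Ube2c stayed near it under both scalings.

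All 8 tested mitotic kinases and chromosomal passenger genes rose. Aurkb, the Aurora kinase of the passenger complex that corrects kinetochore attachments, was 0.830 to 2.33 CPM around a median of 1.62 with PBS and 17.5, 15.9, 5.06 and 7.57 CPM in LPS mice 2, 6, 7 and 8. The groups were well apart, and the log2 fold change was 2.81 (SE 0.30, adjusted p = 3.93e-06), the smallest p of the 48 genes. Plk1, the Polo-like kinase of mitotic entry, was 0 to 1.35 CPM with PBS and 16.7, 13.3, 2.96 and 7.29 CPM with LPS (log2 fold change 3.61, SE 0.49, adjusted p = 3.63e-05). Birc5, survivin, was 1.43 to 5.63 CPM with PBS and 16.8, 15.4, 3.73 and 6.52 CPM with LPS (2.06, SE 0.38, adjusted p = 0.000506). Here LPS mouse 7 lay below PBS mouse 9. The change was 3.35 for Bub1, a checkpoint kinase, and 0.81 for Incenp, the scaffold of the passenger complex, whose call was lost without LPS mouse 2, LPS mouse 6 or PBS mouse 1 (highest adjusted p = 0.0929).

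Of the checkpoint and anaphase-promoting complex genes, 3 of 4 rose, with log2 fold changes of 2.20 for Cdc20, the activator of the complex, 1.93 for Cdca3 and 1.27 for Mad2l1, the checkpoint inhibitor of CDC20. Of the kinetochore and centromere genes, 7 of 8 rose. Knl1, a kinetochore scaffold, was 0.811 to 2.25 CPM with PBS and 2.96 to 8.22 CPM with LPS, and changed by 2.02 (SE 0.28, adjusted p = 3.87e-05). Nuf2 and Cenpe, which bind kinetochores to microtubules, changed by 2.97 and 2.50. Cenpa, the histone H3 variant that marks centromeres, did not pass, with 13.9 ± 2.65 CPM (SD, n = 9) with PBS and 15.2 ± 6.92 CPM (SD, n = 4) with LPS (log2 fold change 0.07, adjusted p = 0.847). Leaving out LPS mouse 2 ended the calls of Cenpf (adjusted p = 0.0621) and Spc24 (adjusted p = 0.0913), and that of Ndc80 was lost in 8 of 13 leave-one-out fits.

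Of the kinesins and spindle genes, 12 of 14 rose. Kif2c, a kinesin that takes microtubules apart, and Kif15, a spindle motor, changed by 3.25 and 3.05, and Kif11, the motor that separates spindle poles, by 2.85. Racgap1, a regulator of cytokinesis, had the smallest change of the 12, 0.92 (SE 0.31, adjusted p = 0.0261), and lost its call without LPS mouse 2 or LPS mouse 6 (highest adjusted p = 0.104). Kifc1, a motor that bundles spindle microtubules, was 0.450 to 2.70 CPM with PBS and 3.34 to 14.0 CPM with LPS, a change of 2.57 (SE 0.36, adjusted p = 3.80e-05). Kifc5b, a close relative, was 0.573 to 2.41 CPM with PBS and 3.40, 3.72, 1.82 and 2.49 CPM in LPS mice 2, 6, 7 and 8. These ranges overlapped and the test was not passed (0.69, SE 0.31, adjusted p = 0.0907), though it was without LPS mouse 7 (0.86, adjusted p = 0.0466) and with DESeq2 (0.67, adjusted p = 0.0468). Kifc1 shares 39.7% of its 50-base transcript words with other genes and Kifc5b 37.4%, for the most part with each other, so their counts are uncertain. The same holds to a lesser degree for Kif20a (25.2%, chiefly the opposite-strand gene Cdc23), Mybl2 (19.3%, chiefly Gm3320), Ube2c (16.0%, chiefly the opposite-strand gene Tnnc2), Kif4 (14.5%), Cdc25c (11.9%), Ncapg (11.8%), Ccna2 (11.4%), Cdc20 (10.6%) and Plk1 (10.4%).

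The 5 chromosome structure genes all rose. Mki67 was 10.7 to 41 CPM around a median of 22.7 with PBS and 95.6, 90.5, 50.3 and 58.0 CPM in LPS mice 2, 6, 7 and 8, with no overlap (log2 fold change 1.73, SE 0.33, adjusted p = 0.000646). Top2a was 2.91 to 12.6 CPM with PBS against the LPS levels given above (2.88, SE 0.36, adjusted p = 1.92e-05). Ncapg, a subunit of the condensin that compacts chromosomes, was 0 to 1.32 CPM with PBS and 9.36, 9.57, 3.54 and 4.94 CPM with LPS (3.01, SE 0.36, adjusted p = 9.78e-06). Ncapd2, another condensin subunit, and Cdca5, sororin, which holds sister chromatids together, changed by 1.73 and 2.78.

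Markers of several other blood cells differed in the same contrast. The summed level of 12 markers of immature neutrophils was 52.3 to 207 CPM with PBS and 873 to 2796 CPM with LPS, and 7 of 7 tested passed as higher. That of 8 progenitor markers was 21.0 to 66.6 CPM with PBS and 21.6 to 35.8 CPM with LPS, inside the PBS range, though 2 of 6 tested passed as higher. For 8 markers of antibody-secreting cells the sum was 64.4 to 105 CPM with PBS and 134 to 148 CPM with LPS. Of these, 6 were tested, and 2 passed as higher and 2 as lower. Of 10 monocyte markers, 5 passed as higher and 1 as lower. All 10 mature neutrophil markers passed as higher in both LPS comparisons, with a median log2 fold change of 3.13 against PBS. Their sum was 7436, 4325, 14035 and 11403 CPM in LPS mice 2, 6, 7 and 8, so the 2 LPS mice highest for mitosis genes had the lowest sums of the 4. In the same order, sums of T cell markers (135, 147, 122 and 114 CPM) and B cell markers (436, 356, 159 and 264 CPM) were highest in mice 2 and 6. Sums of erythroid (11072, 2608, 33420 and 12621 CPM), platelet (2777, 1623, 7698 and 4393 CPM) and general leukocyte markers were lowest in that pair. Mice with ALY688 and LPS reached T cell sums of 192 CPM and B cell sums of 1003 CPM, so high lymphocyte sums were not particular to the pair. The immature neutrophil sum was 2482, 873, 2796 and 1804 CPM and did not follow the pair. Of 12 platelet markers 6 passed as lower. Of 12 T cell markers 11 passed as lower and of 10 B cell markers all did, while 8 of 12 natural killer cell markers passed as higher. With the globin share as a covariate, 10 mitosis genes passed the test instead of 43, all 10 as higher, and the median log2 fold change was 1.72. They were Mki67, Top2a, Kif11, Tpx2, Aurkb, Ccnb1, Ccnf, Ncapg, Kif2c and Ube2c. The share of all genes that passed in that fit was not counted, so the drop is not a result about mitosis genes. Foxm1 was then at 0.48 (adjusted p = 0.536), Plk1 at 2.13 (adjusted p = 0.118), Cdk1 at 2.37 (adjusted p = 0.057) and Mybl2 at 2.04 (adjusted p = 0.0536). The parts of the other cell types in these changes were not tested.

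The promoters of Ccnf, Ncapg and Top2a are printed because these are the 3 members with the smallest p against PBS whose promoter holds the cell cycle homology region. That element (CHR) is known to bind the MuvB complex, which keeps mitosis genes off in resting cells and activates them with B-MYB and FOXM1, often beside CCAAT boxes bound by NF-Y. The sequences are from RefSeq (GRCm38.p6), each 130 bases that end upstream of the gene's RefSeq and GENCODE starts, 5′ to 3′ along the gene. They are chr17:24251485-24251614 on the minus strand for Ccnf, chr5:45669789-45669918 on the plus strand for Ncapg and chr11:99024190-99024319 on the minus strand for Top2a. Capitals mark TTTGAA, the CHR letters, and CCAAT, each on either strand. Ccnf has its capital CHR letters at -130, counted from -1 as the base before the RefSeq start, and a further match at -14, which lies outside the printed stretch.
Ccnf: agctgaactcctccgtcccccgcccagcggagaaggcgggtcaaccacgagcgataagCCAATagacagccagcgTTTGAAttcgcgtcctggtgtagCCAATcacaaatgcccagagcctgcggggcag
Ncapg: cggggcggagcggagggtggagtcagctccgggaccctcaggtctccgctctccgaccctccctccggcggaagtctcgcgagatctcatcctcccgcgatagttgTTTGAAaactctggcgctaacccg
Top2a: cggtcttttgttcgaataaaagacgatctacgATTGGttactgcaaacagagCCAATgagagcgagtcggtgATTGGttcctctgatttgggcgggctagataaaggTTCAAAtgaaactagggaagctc

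TTTGAA on either strand was found in 33 of 42 promoters of 41 mitosis genes (78.6%), against 17.9% of all 32851 promoters of the same length, 300 bases (250 before the gene start and 50 after). Its first base lay within 40 bases of the start in 71.4% of the mitosis promoters and 4.20% of all promoters. CCAAT on either strand was in 76.2% against 37.4%, and both motifs were in 66.7% against 6.95%. The CHR variant TTCGAA, on either strand, was in 9.52% against 1.56%. TTTGAA and CCAAT can share at most 1 base. Of the 3 genes with the highest levels, Ube2c held TTTGAA at -29, while in Cdc25b and Nusap1 these letters were not in the window. Cdc25b held the variant TTCGAA 7 bases past the start and CCAAT at -28. Ccnb1, with the highest fold change, also had no TTTGAA in the window, but held CCAAT at -99 and -67. These matches describe the sequence and do not show binding. The promoter table held no entry for 9 of the 50 genes.

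**Figure D4:**
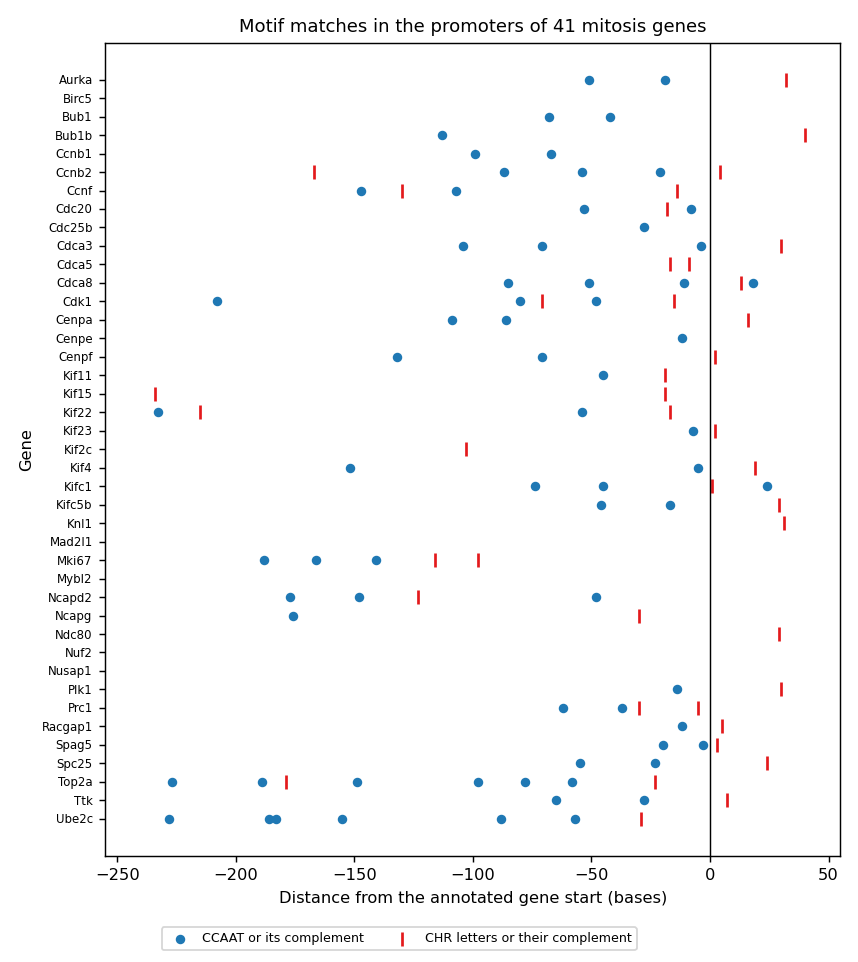
Positions of the CHR letters (red bars) and CCAAT (blue dots), on either strand, in the promoters of 41 mitosis genes, as bases from the RefSeq gene start (vertical line). Most red bars lie close to the start, within 40 bases in 30 of 42 promoters, with the blue dots mainly upstream of it.

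The same LPS contrast among mice given ALY688 used other libraries on both sides. Of 48 tested genes, 38 were higher with ALY688 and LPS than with ALY688, 1 was lower and 9 did not pass edgeR's quasi-likelihood test, where 53% of 12266 genes passed, 26.4% as higher and 26.6% as lower. The median log2 fold change was 1.26, against -0.05 over all genes. The groups did not overlap for 8 genes, against 12.7% of all genes. Without the 6 libraries of few detected genes, 45 of 49 passed here, and 41 of 48 in LPS against PBS. The summed level of the 12 immature neutrophil markers was 39.3 to 342 CPM with ALY688 and 638 to 3024 CPM with ALY688 and LPS, with 6 of 7 tested higher, and its part was not tested.

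Bub1 changed most. It was 0 to 1.21 CPM around a median of 0.409 with ALY688 and 2.59 to 7.51 CPM around 3.83 with ALY688 and LPS, with no overlap (log2 fold change 2.80, SE 0.41, adjusted p = 1.19e-05). Cdk1 was 0.240 to 2.85 CPM with ALY688 and 2.65 to 9.23 CPM with ALY688 and LPS, and Top2a was 2.55 to 20.4 CPM against 22.8 to 46.7 CPM. Their log2 fold changes were 1.99 (SE 0.39, adjusted p = 0.000241) and 1.86 (SE 0.37, adjusted p = 0.000341), and the ranges of Cdk1 overlapped while those of Top2a did not. Mki67 changed by 1.27, Ccnb1 by 1.72, Plk1 by 1.62, Birc5 by 1.49, Aurkb by 1.22, Foxm1 by 1.06 and Mybl2 by 1.95, each past the threshold. Kif23, the kinesin of the central spindle, was 6.01 to 11.5 CPM with ALY688 and 11.8 to 17.0 CPM with both agents, with no overlap at a change of 0.80 (SE 0.12, adjusted p = 2.20e-05). Its call was lost with library totals in place of TMM (0.84, adjusted p = 0.067). Those of Racgap1 and Kif22 were each lost in 10 of 17 leave-one-out fits, of Ncapd2 and Knl1 in 2 (without mouse 3 or mouse 10 with both agents) and of Incenp without mouse 10.

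Pkmyt1 was the gene that fell, from 7.52 ± 1.66 CPM (SD, n = 10) with ALY688 to 5.16 ± 1.35 CPM (SD, n = 7) with ALY688 and LPS (log2 fold change -0.54, SE 0.16, adjusted p = 0.00838). The groups overlapped, and the call was lost with library totals (-0.43, adjusted p = 0.472). Cenpa (-0.32, adjusted p = 0.101), Kifc5b (0.18, adjusted p = 0.593) and Cdc25b (-0.90, adjusted p = 0.187) did not pass the test. Cdc25b passed as lower without the libraries of few detected genes (-1.08, adjusted p = 0.000243), as did Cenpa (-0.40, adjusted p = 0.0348).

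The 2 LPS comparisons share no library. All 38 genes higher with LPS among ALY688 mice were also higher against PBS, and Ndc80, Ccna2, Cdca3 and Ccnb2 passed only against PBS. The log2 fold change was larger without ALY688 for 45 of 48 genes. Whether it differed was tested as the interaction of ALY688 and LPS in one edgeR fit over all 30 libraries. None of 50 mitosis genes passed, nor did any of 13476 genes (0%). At an unadjusted p below 0.05, 16 of the 50 were lower, against 3.72% of all genes, and DESeq2 also called none of the 50. The median interaction was -0.91, against -0.03 over all genes, and it was below 0 for 47 genes. The smallest unadjusted p was that of Kifc1 (interaction -1.62, SE 0.41, adjusted p = 0.507). Ccnb1 had the lowest value, -2.30 (SE 0.83, adjusted p = 0.507), and Mki67 was at -0.45 (SE 0.48, adjusted p = 0.692).

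**Figure D5:**
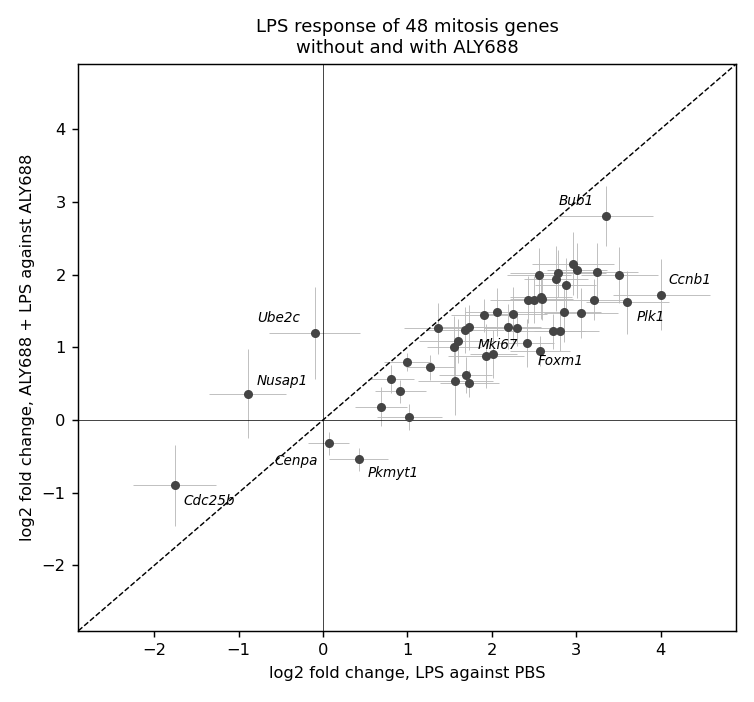
Each point is 1 of 48 mitosis genes, with its log2 fold change for LPS against PBS on the horizontal axis and for ALY688 with LPS against ALY688 on the vertical axis, bars of ± 1 SE and a dashed line of equal values. Of the 48 points, 45 lie to the right of the dashed line, and the 3 on the other side are Cdc25b, Nusap1 and Ube2c.

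ALY688 with LPS was then set against LPS alone, the contrast the study made to look at anti-inflammatory effects of ALY688. No mitosis gene passed edgeR's quasi-likelihood test, nor did any of 12741 genes (0%), and DESeq2 called none of the 50 either. The values leaned lower: 47 of 50 log2 fold changes were below 0, with a median of -0.77 against -0.001 over all genes. At an unadjusted p below 0.05, 23 of the 50 genes were lower, against 2.53% of all genes. All 50 genes rest on the same 4 LPS libraries, so the 47 are not separate observations. The median was -0.50 without LPS mouse 2, -0.57 without LPS mouse 6, and -0.97 and -0.94 without LPS mice 7 and 8.

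Kifc5b was the only mitosis gene whose groups did not overlap here, against 0.165% of all genes. Its level was 0.987 to 1.74 CPM around a median of 1.53 with ALY688 and LPS, against 1.82 CPM in the lowest LPS mouse (log2 fold change -0.92, SE 0.23, unadjusted p = 0.00171, adjusted p = 0.913). The margin was narrow: that mouse, LPS mouse 7, had 19 counts of Kifc5b, and 3 counts were worth 0.287 CPM there. Relative to library totals alone, the 2 groups overlapped for Kifc5b. Ccnf was 15.2, 12.1, 4.49 and 6.85 CPM in LPS mice 2, 6, 7 and 8 and 2.30 to 5.65 CPM with ALY688 and LPS (-1.15, SE 0.31, adjusted p = 0.913). Foxm1 was 1.48 to 7.77 CPM with both agents (-1.21, SE 0.39, adjusted p = 0.913) and Aurkb 2.47 to 8.37 CPM (-1.06, SE 0.35, adjusted p = 0.913). LPS mouse 7 lay within those ranges for all 3 genes. Pkmyt1 was 13.5, 12.7, 5.73 and 7.81 CPM with LPS and 2.47 to 6.14 CPM with both (-0.91, SE 0.25, adjusted p = 0.913).

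The most used proliferation markers differed less. Mki67 was 36.1 to 69.2 CPM around a median of 52.8 with ALY688 and LPS (log2 fold change -0.42, SE 0.21, adjusted p = 0.913), and Top2a had -0.63 (SE 0.29). By role, the medians ran from -0.93 for the regulators and cyclins to -0.58 for the kinetochore genes. Ccnb1 had the lowest value, -1.30 (SE 0.50), with 1.12 to 6.44 CPM. The values were -1.0 for Plk1, -0.96 for Mybl2, -0.85 for Cdk1 and -0.79 for Birc5, all with adjusted p = 0.913. Cdc25b (0.88), Ube2c (1.17) and Nusap1 (1.52) were the 3 above 0, also with adjusted p = 0.913. Of 19 erythroid markers 18 were above 0 in this contrast, with a median of 1.29, and all 12 natural killer cell markers were below 0, with a median of -0.47. The immature neutrophil sum overlapped, at 873 to 2796 CPM with LPS and 638 to 3024 CPM with both agents. None of these markers passed the test, and their part in the mitosis values was not tested.

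ALY688 alone was compared with PBS to look for markers of its action. Of 41 mitosis genes that passed the filter, none passed edgeR's quasi-likelihood test, nor did any of 11708 genes (0%), and DESeq2 called none of the 41. At an unadjusted p below 0.05, 1 of the 41 passed, against 10.7% of all genes. The median log2 fold change was 0.21, against 0.03 over all genes, and 30 genes were above 0. Bub1, Cdc25c, Cdca5, Kif2c, Kif4, Mybl2, Nuf2, Spc25 and Ttk were too low to be tested.

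The gene with the unadjusted p below 0.05 was Kifc1, at 1.37 ± 0.667 CPM (SD, n = 9) with PBS and 2.30 ± 0.792 CPM (SD, n = 10) with ALY688 (log2 fold change 0.66, SE 0.27, adjusted p = 0.442). Plk1 (0.98, SE 0.50, adjusted p = 0.442), Ccnb1 (0.96, SE 0.60, adjusted p = 0.494) and Kif15 (0.75, SE 0.43, adjusted p = 0.464) had the highest values. Aurkb stood at 0.52, Cdk1 at 0.66, Top2a at 0.38, Foxm1 at 0.16, Mki67 at 0.02, Birc5 at -0.19 and Kifc5b at -0.41. Spc24, a kinetochore subunit, had the lowest value, -0.63 (SE 0.41, adjusted p = 0.498). Every one of these genes overlapped between the groups. With library totals in place of TMM the median was 0.66, against 0.50 over all genes, so the members stood 0.19 above the median of all genes with TMM and 0.17 above it without.

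Other genes of cell division were counted in the same fits. Of 56 further mitosis genes, 35 of 48 tested rose with LPS against PBS and 2 fell, and 39 of 50 rose and 1 fell among ALY688 mice. Gtse1, a microtubule-binding regulator of G2, went from 1.01 ± 0.339 CPM (SD, n = 9) with PBS to 13.8 ± 4.76 CPM (SD, n = 4) with LPS. Smc4, a condensin subunit, fell in both, by 0.62 and 0.66 on the log2 scale. Of 46 DNA replication genes, 35 of 44 rose and 1 fell, and 30 of 43 rose and 3 fell among ALY688 mice. Mcm10, a replication initiation factor, changed by 3.91 and 2.62, and Uhrf1, which maintains DNA methylation after replication, by 3.39 against PBS.

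Smaller lists of other cell cycle machinery are read against all genes tested, of which 20.9% passed as higher and 17.9% as lower against PBS, and 26.4% and 26.6% among ALY688 mice. A list of 15 genes held core subunits of the anaphase-promoting complex and its coactivator Fzr1. None of the 15 rose in either LPS comparison, and 1 fell against PBS (Anapc13, -1.45) and 3 among ALY688 mice (Anapc1, Cdc23 and Anapc7). Of 11 MuvB and related genes, 2 rose and 1 fell against PBS, and 2 rose and 3 fell among ALY688 mice. Tfdp1, the partner of E2F factors, changed by 2.02 and 1.54, and Lin54, the MuvB subunit that binds the CHR, by 0.75 and 0.72. E2f5 fell by 1.16 and 1.25 on the log2 scale, and Lin9 and Lin52, MuvB subunits, fell by 0.57 and 0.50 among ALY688 mice. In a list of 6 genes for the D-type cyclins, their kinases and Cdk2, Ccnd2 rose in both, and Ccnd3 rose among ALY688 mice. 3 of 4 tested inhibitors of cyclin-dependent kinases rose in both comparisons. Cdkn1a, the p21 inhibitor that halts the cycle, went from 2.19 ± 1.16 CPM (SD, n = 9) with PBS to 20.5 ± 5.82 CPM (SD, n = 4) with LPS, and changed by 3.95 among ALY688 mice. In ALY688 with LPS against LPS, none of these lists had a gene past the threshold, and the medians were -0.61 for the further mitosis genes, -0.52 for DNA replication and -0.02 for the anaphase-promoting complex.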

How the data were processed

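The authors deposited whole-number read counts per gene in 1 table per mouse, not normalized. The submitters' processing notes name HISAT2 2.0.5, a read aligner, and featureCounts 1.5.0-p3, a read counter. Libraries were poly(A)-selected, and the protocol covers both a stranded and an unstranded variant, per the labels' protocols. The sources used here do not name a genome build, annotation or strand setting, so reads of overlapping genes cannot be assigned to a strand.

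Gene IDs were paired with symbols from a table of Ensembl gene IDs (54409 of 54532 matched), and exon lengths came from GENCODE M21. Genes were filtered with edgeR 4.0.16 (filterByExpr), scaled with TMM and tested with its quasi-likelihood F-test in R 4.3.3. Each comparison was fitted on its own groups and the interaction on all 4, with Benjamini-Hochberg adjustment over all genes tested. The SE is the log2 fold change divided by the square root of F. Module means use log2 CPM with a prior count of 2. The fits were tested on simulated counts.

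The members and lists were chosen with earlier results of these data known. Named genes were 10 members in every comparison, up to 10 members with the smallest p in each direction, up to 3 past the threshold per other list, and others singled out after their values were seen. The alternatives were DESeq2 1.42.0, no TMM, no filter, a replicate block, each mouse left out, the globin share as a covariate, and leaving out libraries of under 16000 detected genes. The number of mice limits the precision.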

Additional observations from a re-analysis of the deposited data

Results flagged for a closer look

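In 56 sets of values (14 quantities in each of 4 groups), 4 had a highest mouse far from the others of its group. Chance is taken to set off about 1 in 20 such sets, a rate that was not checked on these CPM values. The sets are not independent, as ALY688 mouse 7 was flagged for several genes. In PBS mouse 9, Birc5 was 5.63 CPM, and the next highest PBS mouse had 3.16 CPM. In ALY688 mouse 7, Cdc25b was 1323 CPM (next highest 271 CPM), Ube2c was 1122 CPM (next highest 212 CPM) and Nusap1 was 294 CPM (next highest 66.2 CPM). Both mice are among the 6 whose libraries had fewer than 16000 genes with a count. Their TMM factors were low, 0.406 for PBS mouse 9 and 0.349 for ALY688 mouse 7, which raises their CPM.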

How the results depend on the processing

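Of 240 alternative values of the counts and medians, 235 stayed within wide limits. Counts of calls could shift by a set factor, and counts that stayed at 0 were included. Medians could move by up to the SD of the mean log2 CPM between libraries. That SD was 0.460 in ALY688 against PBS and 0.464 in ALY688 with LPS against LPS. The 235 thus include a median going from 0.21 to 0.66 in the former (library totals) and from -0.77 to -0.38 in the latter (replicate block). With library totals in place of TMM, the median log2 fold change of the members was 3.55 for LPS against PBS, -1.40 for ALY688 with LPS against LPS and -2.01 for the interaction, while the median over all genes moved to 1.04, -0.49 and -1.0. Ube2c in LPS against PBS then turned to 1.03, near that median. With the globin share as a covariate, 10 members passed in LPS against PBS, with a median of 1.72, Ube2c at 2.89 (adjusted p = 0.00168) and Cdc25b turned to 0.0816 (adjusted p = 0.921). The globin shares of these 2 groups do not overlap, so the covariate and LPS cannot be told apart. The share of all genes passing the test was counted for the main fits only. Changes in the number of members passing are therefore not a result about mitosis genes. Leaving out each mouse gave 37 to 45 calls for LPS against PBS and 34 to 43 for ALY688 with LPS against ALY688, and 37 of 43 and 34 of 39 calls held in every such fit. The median of ALY688 with LPS against LPS ran from -0.97 to -0.50. No clear sign was seen that mouse numbers pair the groups: deviations of same-numbered mice correlated above 0.1 in 2 of 9, 1 of 3, 2 of 4 and 2 of 7 pairs. So few pairs cannot exclude pairing. With the replicate number as a block, 39 and 32 members passed in the 2 LPS comparisons, none in the others, and the median of ALY688 with LPS against LPS was -0.38, on mice 6, 7 and 8 only. Many members had few counts without LPS: a count of 3 was worth 0.178 to 0.860 CPM in the PBS and ALY688 libraries. Differences between PBS and ALY688 of that size rest on few counts and can be missed. The smallest difference that could be detected was not worked out.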
